A study of Mus musculus with 21 samples.

Results

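Levels of 10 genes of the BCL2 family were followed through 21 libraries of mouse eosinophils and their progenitors. The genes were the anti-apoptotic Bcl2, Bcl2l1, Mcl1, Bcl2a1b and Bcl2a1d, the pore-forming effectors Bax and Bak1, and the death-signal genes Bcl2l11, Bbc3 and Pmaip1. They were found by gene symbol among 15945, 22274 and 16645 genes of 3 deposited tables, and all 10 were present and passed the filter on low counts in each. The table of cytokine-treated eosinophils matched 8 of the 10 by symbol, since it writes the same short symbol for the 4 Bcl2a1 genes, and Bcl2a1b and Bcl2a1d were taken there by Ensembl identifier.

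Poly(A) RNA had been sequenced, and all mice were wild type (WT) per the labels. The first table compares bone marrow eosinophils (n = 3) with granulocyte-macrophage progenitors (GMPs, n = 3), precursors of granulocytes and macrophages. The second compares eosinophils treated with cytokines of a type 2 (T2) response (n = 3) with resting eosinophils (n = 3). The T2 labels name IL-4 and GM-CSF for every library and IL33, IL34 or IL35 for replicate 1, 2 or 3. The 3 T2 libraries were taken as 1 group, so if these labels hold, they differ in the third cytokine. The third holds bone marrow-derived eosinophils (BMDEs) with ferric ammonium citrate (FAC, an iron source, 10 µM, n = 4), with deferoxamine (DFO, an iron chelator, 5 µM, n = 3) or with neither (control, n = 2). BMDEs are eosinophils grown from marrow, here for 4 days in SCF and FLT3-Ligand at 100 ng/mL each and afterwards in IL-5 at 10 ng/mL, which the controls received too; FAC or DFO came in on day 4, and sequencing was done on cells of day 7. The labels repeat this culture text for every library, so the isolation of the other cells is not given. Nor is it stated that replicates are different mice or cultures, and every p-value reflects the spread among libraries, which may be technical.

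BCL2 family proteins decide at the outer mitochondrial membrane whether a cell releases cytochrome c and activates caspases. The anti-apoptotic members BCL2, BCL-XL (from Bcl2l1), MCL1 and A1 (from the Bcl2a1 genes) hold the effectors BAX and BAK in check, whereas BH3-only proteins such as BIM (Bcl2l11), PUMA (Bbc3) and NOXA (Pmaip1) bind the anti-apoptotic members and release the effectors. Eosinophils are short-lived granulocytes whose survival outside the marrow depends on cytokines such as IL-5 and GM-CSF. A1 is known as a gene that GM-CSF and NF-kB induce in myeloid cells, and BIM and PUMA as genes that FOXO factors switch on when a survival cytokine is withdrawn.

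The Bcl2a1 genes are near copies of each other, which bears on how far their counts can be told apart. Bcl2a1b and Bcl2a1d differ at 6 of 516 coding bases, Bcl2a1a differs from Bcl2a1b at 11 and from Bcl2a1d at 7. Coding bases 1 to 90 of the 3 genes, all on mouse chromosome 9, hold 6 positions at which they are not all alike, printed in capitals (GENCODE M21 transcripts, GRCm38).
Bcl2a1a coding: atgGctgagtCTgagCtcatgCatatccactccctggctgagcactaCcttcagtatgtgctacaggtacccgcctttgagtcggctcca
Bcl2a1b coding: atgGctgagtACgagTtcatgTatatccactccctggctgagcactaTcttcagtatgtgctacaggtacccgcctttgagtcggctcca
Bcl2a1d coding: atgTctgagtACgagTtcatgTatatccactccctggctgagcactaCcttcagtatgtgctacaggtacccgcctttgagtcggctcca
Of all 50-base stretches of the Bcl2a1b transcript, 57.6% also occur in another Bcl2a1 transcript, and of those of Bcl2a1d 79.5%; at 100 bases the shares were 31.1% and 54.7%, and at 150 bases 14.2% and 30.3%. The read length and the treatment of shared reads are not given in the sources used here, so the split between the paralogs is uncertain, and the sum of Bcl2a1b and Bcl2a1d is given beside each.

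Promoter windows of the paralogs that were highest with T2 cytokines, and of the BH3-only genes that were lower there, follow from RefSeq (GRCm38.p6), each with 250 bases before and 50 after an annotated start, read 5′ to 3′ on the gene's strand. Capitals mark a match to the AP-1 letters TGANTCA in the Bcl2a1 windows and to the FOXO letters GTAAACA, on either strand, in the others. In the AP-1 letters N admits any base, and it is A in both Bcl2a1 windows printed.
Bcl2a1b promoter (chr9:89199023-89199322, plus strand): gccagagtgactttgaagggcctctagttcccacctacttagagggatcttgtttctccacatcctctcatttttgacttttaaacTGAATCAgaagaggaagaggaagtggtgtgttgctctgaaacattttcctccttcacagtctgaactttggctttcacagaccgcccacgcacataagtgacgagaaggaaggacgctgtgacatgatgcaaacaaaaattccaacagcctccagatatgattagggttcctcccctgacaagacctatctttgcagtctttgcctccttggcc
Bcl2a1d promoter (chr9:88731801-88732100, minus strand): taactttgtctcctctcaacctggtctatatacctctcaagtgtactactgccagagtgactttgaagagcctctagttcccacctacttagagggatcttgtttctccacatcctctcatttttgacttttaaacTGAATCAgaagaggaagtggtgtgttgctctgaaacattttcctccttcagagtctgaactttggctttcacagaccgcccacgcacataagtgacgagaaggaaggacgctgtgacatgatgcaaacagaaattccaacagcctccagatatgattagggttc
Bcl2l11 promoter (chr2:128125788-128126087, plus strand): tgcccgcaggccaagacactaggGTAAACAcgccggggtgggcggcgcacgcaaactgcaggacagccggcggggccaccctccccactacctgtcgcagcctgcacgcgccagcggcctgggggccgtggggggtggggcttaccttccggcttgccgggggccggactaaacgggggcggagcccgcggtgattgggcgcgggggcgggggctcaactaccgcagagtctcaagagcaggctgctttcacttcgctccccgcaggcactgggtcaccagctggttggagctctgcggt
Bbc3 promoter (chr7:16310011-16310310, plus strand): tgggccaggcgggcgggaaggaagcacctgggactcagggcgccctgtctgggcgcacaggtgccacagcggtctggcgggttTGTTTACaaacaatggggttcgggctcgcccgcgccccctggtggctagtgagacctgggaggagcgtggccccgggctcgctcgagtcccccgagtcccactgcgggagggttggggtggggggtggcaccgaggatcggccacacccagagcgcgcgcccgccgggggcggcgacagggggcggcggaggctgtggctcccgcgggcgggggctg
The match began at position -164 from the start in Bcl2a1b, at -114 in Bcl2a1d, at -227 in Bcl2l11 and at -167 in Bbc3. The window of Bcl2a1a, not printed, held the AP-1 letters at -120, and that of Bcl2a1c held 0 matches. As the paralogs are near copies, their matches do not count as separate ones. The AP-1 letters were in 7.81% and the FOXO letters in 3.65% of all 32851 promoter windows. The letters of a STAT site (TTCNNNGAA, 8.30% of all windows) and the NF-kB motif (0.411% of all windows) matched in no window of a member, and the other annotated starts of Bcl2l11 and Bbc3 held no FOXO letters. Both strands were searched for each motif, and none of the matches printed overlaps another. The table held no window for Pmaip1.

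The other members lie apart on GRCm38, with their Entrez numbers in brackets. Bcl2 (12043) spans chromosome 1 from 106538178 to 106714274 on the minus strand, and Bcl2l1 (12048) spans chromosome 2 from 152780668 to 152831728 on the minus strand. Mcl1 (17210) spans chromosome 3 from 95658788 to 95663176, Bcl2l11 (12125) chromosome 2 from 128126038 to 128162547 and Bbc3 (170770) chromosome 7 from 16308393 to 16318205, all on the plus strand. Bax (12028) spans chromosome 7 from 45461697 to 45466898 and Bak1 (12018) chromosome 17 from 27019810 to 27029009, both on the minus strand. Bcl2a1b (12045) and Bcl2a1d (12047) lie in the same stretch of chromosome 9, from 89199209 to 89207827 on the plus strand and from 88723285 to 88731914 on the minus strand.

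Total counts per library were 25857361 to 28992674 in the eosinophil and GMP table, 16073573 to 18995878 in the T2 table and 16809773 to 17991870 in the BMDE table. The 10 eosinophil markers examined (Epx, Prg2, Ccr3 and others) were detected in every group and took 1.84% to 2.54% of counts in bone marrow eosinophils against 0.0114% to 0.0289% in GMPs. A pair of libraries stands apart. In bone marrow eosinophil library 3 the 12 neutrophil markers (S100a8, Ltf and others) took 13.6% of counts, against 3.35% and 6.60% in the other bone marrow eosinophil libraries, and its TMM factor (the scaling factor for composition) was 0.689 against 0.914 and 1.01. FAC library 6 lay apart from the other FAC libraries in several of the genes below, and values without either library are given where it moved a result.

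**Figure D1:**
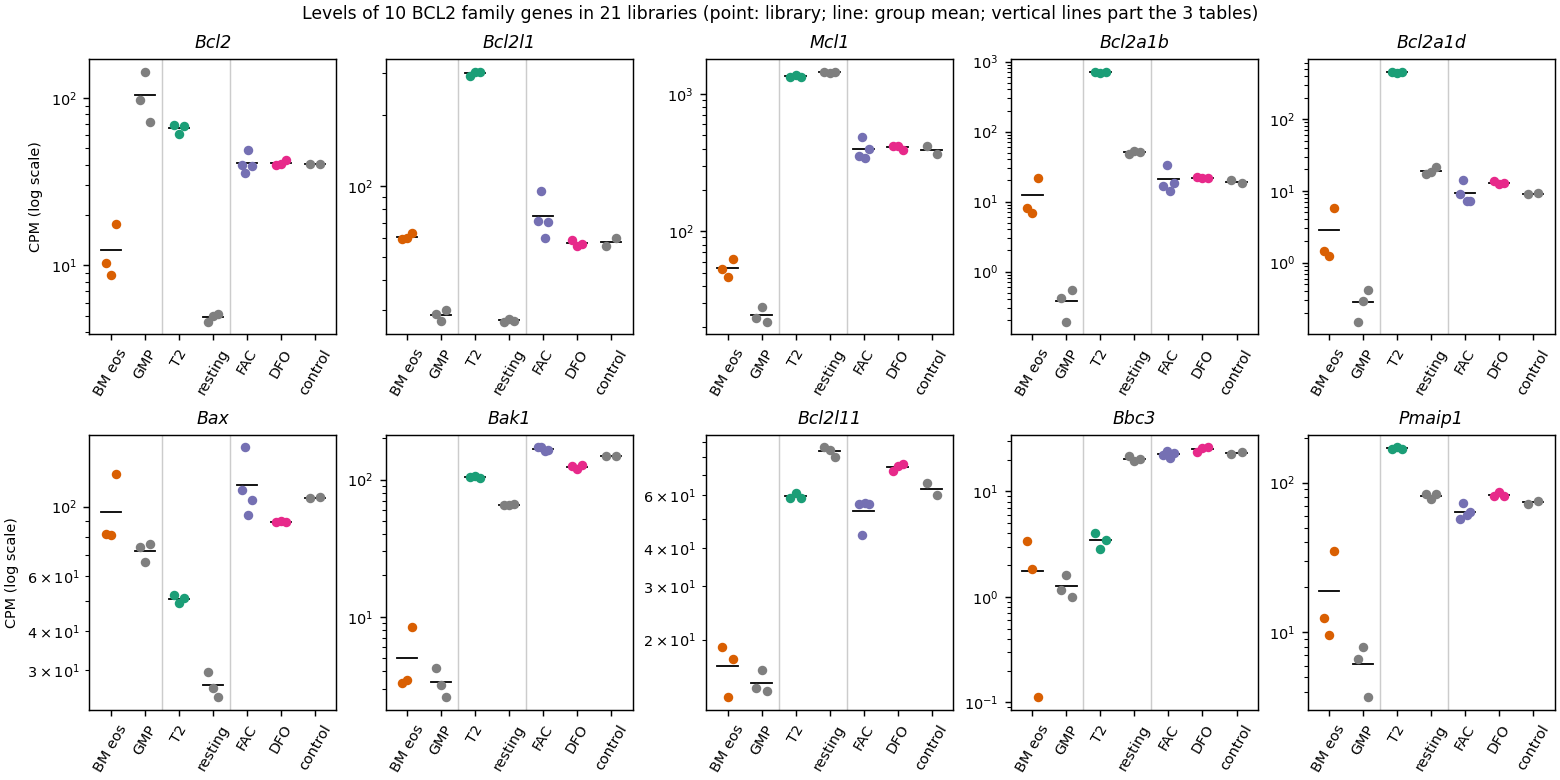
Level of each of the 10 genes in the 21 libraries, as CPM with TMM factors on a log axis whose range differs between panels; points are libraries, short lines group means, and vertical lines part the 3 tables, which were scaled separately. Bcl2a1b, Bcl2a1d, Bcl2l1 and Bcl2 are far higher in T2 than in resting eosinophils, Bbc3 is lower there, and the FAC, DFO and control BMDEs lie close together.

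With T2 cytokines, 4 of the 5 anti-apoptotic genes rose by 3.47 or more on the log2 scale while the fifth, Mcl1, stayed near its resting level, and the 3 BH3-only genes went different ways. Levels are CPM (normalised for library size and TMM factor) throughout, log2 fold changes come from edgeR's quasi-likelihood test with their standard error (SE), and a gene was called at a Benjamini-Hochberg adjusted p under 0.05 over all genes tested in the comparison. All 10 genes were called, 7 higher and 3 lower in T2 eosinophils, where 76.1% of the 11345 genes tested were called, 38.2% higher and 37.9% lower. T2 and resting values were separate for all 10, as for 77.7% of all genes tested. Of the 10, 4 rose by at least 3 on the log2 scale, as did 1.90% of all genes tested. The bound was chosen after the values were seen, and the members with earlier results of these data known. The 2 shares are therefore a description and no evidence that the family departs from other genes. The 4 include Bcl2a1b and Bcl2a1d, which can share reads. In bulk RNA, fewer cells of a type and less RNA per cell cannot be told apart.

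Bcl2a1b, which encodes a form of A1, reached 711.4, 684.6 and 719.4 CPM in the T2 libraries, against 48.5, 53.6 and 51.1 CPM in the resting libraries. Bcl2a1d reached 448.4, 437.3 and 459.8 CPM in T2 eosinophils, against 17.3, 18.6 and 21.2 CPM in resting eosinophils. Every T2 library was far above the highest resting library for each paralog. The log2 fold change was 3.79 ± 0.0507 (SE; adjusted p = 5.08e-18) for Bcl2a1b and 4.56 ± 0.0642 (SE; adjusted p = 8.21e-18) for Bcl2a1d. Their sum averaged 1153.6 ± 29.2 CPM in T2 and 70.1 ± 3.74 CPM in resting eosinophils (SD, n = 3 each), with 4.04 ± 0.0503 (SE) as the log2 fold change (adjusted p = 2.43e-18), so the rise does not depend on how reads were split between these paralogs. With Bcl2a1a and Bcl2a1c added to the sum, the log2 fold change was 3.5.

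Bcl2l1, the source of BCL-XL, stood at 291.5, 303.4 and 303.9 CPM in T2 eosinophils, against 26.7, 27.5 and 27.0 CPM in resting eosinophils. Bcl2 itself stood at 69.0, 60.9 and 68.1 CPM in T2 eosinophils, against 4.61, 5.01 and 5.15 CPM in resting eosinophils. The groups lay far apart for both genes, with log2 fold changes of 3.47 ± 0.0513 (SE; adjusted p = 1.47e-17) for Bcl2l1 and 3.74 ± 0.0851 (SE; adjusted p = 1.65e-15) for Bcl2. Mcl1, whose short-lived protein guards many myeloid cells, had 1330.3, 1368.3 and 1334.0 CPM in T2 eosinophils, against 1455.9, 1425.9 and 1454.2 CPM in resting eosinophils. The T2 libraries were all lower, with -0.10 ± 0.0361 (SE) as the log2 fold change (adjusted p = 0.0158), and the call was kept in 8 of 13 alternative settings; it was lost, among others, with no filter on low counts (adjusted p = 0.152) and without T2 replicate 1 (adjusted p = 0.0928) or resting replicate 1 (adjusted p = 0.0646).

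Among the BH3-only genes, Bbc3 (PUMA) fell to 3.99, 2.86 and 3.47 CPM in T2 eosinophils, against 21.4, 19.3 and 20.3 CPM in resting eosinophils. Bcl2l11 (BIM) had 58.5, 60.9 and 58.8 CPM in T2 eosinophils, against 86.3, 84.4 and 80 CPM in resting eosinophils. Pmaip1 (NOXA), which binds MCL1 and A1, had 168.2, 172.4 and 168.0 CPM in T2 eosinophils, against 83.3, 77.4 and 83.6 CPM in resting eosinophils. All T2 libraries were thus below every resting library for Bbc3 and Bcl2l11 and above them for Pmaip1. The log2 fold changes were -2.56 ± 0.121 (SE; adjusted p = 1.41e-11) for Bbc3, -0.49 ± 0.0534 (SE; adjusted p = 4.52e-07) for Bcl2l11 and 1.06 ± 0.0493 (SE; adjusted p = 1.20e-11) for Pmaip1.

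The effector genes rose less. Bax had 52.0, 49.3 and 51.2 CPM in T2 eosinophils, against 29.7, 26.3 and 24.6 CPM in resting eosinophils, and Bak1 had 104.2, 106.7 and 103.3 CPM against 65.3, 64.8 and 66.3 CPM in resting eosinophils. Both were higher in every T2 library, by log2 fold changes of 0.92 ± 0.0698 (SE; adjusted p = 5.69e-09) for Bax and 0.68 ± 0.0493 (SE; adjusted p = 3.42e-09) for Bak1. The median log2 fold change of the 10 genes was 0.99, against -0.01 over all genes tested. With library totals alone and no TMM factors, the median of all genes moved to -0.23 and the calls split into 3158 higher and 5551 lower genes in place of 4329 and 4303, while the 10 members kept their directions and calls.

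Other death and survival genes moved in both directions, in a comparison where 38.2% of all genes tested were called higher and 37.9% lower. Of 12 genes of the apoptosome and caspase list tested, 3 were higher and 8 lower in T2 eosinophils, with a median log2 fold change of -0.50. Apaf1, the scaffold of the apoptosome, changed by -0.91 (adjusted p = 4.06e-11), the caspase gene Casp6 by -1.66 (adjusted p = 1.49e-10) and the initiator Casp9 by -0.18 (adjusted p = 0.00837). Cycs (cytochrome c) and Aifm1, both of the intermembrane space, were higher, by 1.86 (adjusted p = 3.52e-12) and 1.87 (adjusted p = 4.26e-12).

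Of 7 further BH3-only genes tested, 3 were higher and 3 lower in T2 eosinophils; the lower ones past a log2 fold change of -1 were Bmf (-2.13, adjusted p = 5.07e-12), Bnip3l (-1.41, adjusted p = 1.93e-11) and Bad (-1.30, adjusted p = 1.19e-08). Of 3 further anti-apoptotic genes, Bcl2l2 (BCL-W) rose by 1.10 (adjusted p = 3.34e-06), and Bcl2a1a and Bcl2a1c rose by 2.61 and 2.97. Of the 50-base stretches of Bcl2a1a, 69.0% also occur in another Bcl2a1 transcript, and of those of Bcl2a1c 10.4%. At 100 bases the shares were 43.5% and 0.0%. The death receptor list holds the receptor genes Fas, Tnfrsf1a and Tnfrsf10b and the signalling genes Fadd, Tradd, Ripk1 and Casp8. Of these 7 genes 4 were higher: Fas, Tnfrsf1a, Casp8 and Fadd. Fas led at 173.9 ± 3.74 CPM in T2 and 46.5 ± 0.990 CPM in resting eosinophils (SD, n = 3 each). Its log2 fold change was 1.90 (adjusted p = 9.62e-15). The caspase inhibitor list holds Cflar, Xiap, Birc2, Birc3, Birc5, Birc6, Naip2 and Naip5. It split 3 higher and 3 lower of 8, with Cflar, which blocks caspase-8, up by 1.09 (adjusted p = 1.96e-10).

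Of 9 genes of p53 and its targets, 5 were higher and 2 lower: Trp53 itself by 0.48 (adjusted p = 1.12e-05), Cdkn1a, a cell cycle inhibitor, by 2.53 (adjusted p = 1.03e-15) and Trp53inp1 by -3.36 (adjusted p = 2.88e-16). The upstream list of 13 genes holds cytokine receptor, STAT5 and NF-kB genes, Pim1, Foxo1, Foxo3, Atf4 and Ddit3. Of these 7 were higher and 5 lower. Nfkb1 rose by 1.93, Pim1, a survival kinase and STAT5 target, by 1.89 and Atf4 by 1.32. Il5ra changed by -1.41, Foxo1 by -1.11 and Foxo3 by -0.21 (the adjusted p was under 0.05 for each gene given a value). Of 5 genes that control MCL1 turnover, 2 were higher and 1 lower, and of 5 further genes related to the effectors, 3 were higher. The eosinophil markers took 0.568% to 0.572% of counts in T2 and 0.811% to 0.845% in resting eosinophils, with 2 of 10 higher and 7 lower, and the neutrophil markers 0.117% to 0.122% and 0.269% to 0.291%, with 2 of 12 higher and 7 lower. The mast cell and basophil list took 0.0413% to 0.0447% of T2 and 0.00836% to 0.00922% of resting counts. Mcpt4 and Tpsb2 were at 0 in T2, and Tpsb2 was at 0 in resting eosinophils too. Of the list's 6 tested genes only Hdc was higher, and 4 were lower. The part of these lists in the result was not tested.

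The bone marrow eosinophil libraries differed from GMPs in their anti-apoptotic genes: Bcl2 was lower, and Bcl2l1, Mcl1 and both Bcl2a1 genes were higher. These libraries were mixed by their markers. Neutrophil markers took 3.35%, 6.60% and 13.6% of counts in libraries 1, 2 and 3, and eosinophil markers 2.04%, 1.84% and 2.54%. Progenitor markers took 6.34%, 4.43% and 2.60%. Shares of counts are not shares of cells, and which cells carry the differences was not tested. Called were 5 of the 10 genes, 4 higher and 1 lower, where 19.8% of the 12214 genes tested were called, 13% higher and 6.78% lower. None of the effector and BH3-only genes passed edgeR's test, whereas DESeq2 called Pmaip1 (log2 fold change 1.61, adjusted p = 0.0289). The groups did not overlap for 7 of the 10, against 48.3% of all genes tested.

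Bcl2 had 10.4, 8.72 and 17.7 CPM in bone marrow eosinophils, against 97.3, 143.6 and 72.2 CPM in GMPs. Bcl2l1 had 59.8, 60.2 and 63.3 CPM in bone marrow eosinophils, against 28.9, 26.9 and 29.9 CPM in GMPs. Mcl1 had 53, 46.4 and 62.5 CPM in bone marrow eosinophils, against 23.4, 27.9 and 21.9 CPM in GMPs. No library of one group reached the other for these 3 genes. The log2 fold changes were -3.09 ± 0.383 (SE; adjusted p = 0.00287) for Bcl2, 1.10 ± 0.160 (SE; adjusted p = 0.00525) for Bcl2l1 and 1.15 ± 0.204 (SE; adjusted p = 0.0111) for Mcl1. The Mcl1 call was lost without GMP replicate 1 (adjusted p = 0.0772) or 3 (adjusted p = 0.0626).

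The Bcl2a1 genes were close to undetected in GMPs. Bcl2a1b had 8.10, 6.91 and 21.7 CPM in bone marrow eosinophils, against 0.421, 0.192 and 0.543 CPM in GMPs. Bcl2a1d had 1.45, 1.23 and 5.73 CPM in bone marrow eosinophils, against 0.150, 0.288 and 0.415 CPM in GMPs, which stand for rounded counts of 5, 9 and 13. Bone marrow eosinophil library 3, the one with the most neutrophil marker counts, was the highest for both. The log2 fold changes were 4.97 ± 0.734 (SE; adjusted p = 0.00559) for Bcl2a1b, 3.28 ± 0.928 (SE; adjusted p = 0.0498) for Bcl2a1d and 4.48 ± 0.677 (SE; adjusted p = 0.00613) for their sum. Without library 3 they were 4.26, 2.22 and 3.71, each still called. The Bcl2a1d call was lost in 10 of 13 alternative settings, with a log2 fold change of 1.58 under length and GC offsets.

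Of the death-promoting genes, Pmaip1 had 12.4, 9.56 and 34.7 CPM in bone marrow eosinophils, against 6.67, 7.98 and 3.68 CPM in GMPs, with no overlap but no call (log2 fold change 1.63 ± 0.587 SE; adjusted p = 0.0965). Bax had 81.5, 81.0 and 126.6 CPM in bone marrow eosinophils, against 74.3, 66.7 and 75.9 CPM in GMPs, and was not called (adjusted p = 0.217, log2 fold change 0.41 ± 0.218 SE). For Bcl2l11 the values were 18.9, 12.9 and 17.3 CPM in bone marrow eosinophils and 13.8, 15.9 and 13.5 CPM in GMPs, which overlap. Bak1 had 3.27, 3.46 and 8.42 CPM in bone marrow eosinophils, against 4.24, 3.20 and 2.59 CPM in GMPs. Bbc3 had 3.38, 1.84 and 0.112 CPM in bone marrow eosinophils, against 1.17, 1.63 and 0.991 CPM in GMPs. Library 3 set the highest value of Pmaip1, Bax and Bak1 and the lowest of Bbc3, and for Bak1 and Bbc3 the groups overlap. Without library 3 the log2 fold changes were 0.84 for Pmaip1, 0.16 for Bax, 0.00 for Bak1 and 1.04 for Bbc3, none of them called.

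Of 13 genes of the apoptosome and caspase list tested, 1 was higher in bone marrow eosinophils and 0 were lower. Apaf1, Casp9 and Trp53 were not called, with log2 fold changes of -0.04, 0.45 and -0.20. Fas averaged 32.2 ± 24.0 CPM in bone marrow eosinophils and 0.976 ± 0.194 CPM in GMPs (SD, n = 3 each). Its log2 fold change was 5.04 (adjusted p = 0.00385), and it was the one called of 7 genes of the death receptor list. Of 11 p53 genes, 2 were higher (Perp by 4.92, adjusted p = 8.81e-04, and Trp53inp1 by 2.87, adjusted p = 0.00435) and Tigar was lower (-1.79, adjusted p = 0.0197). Both called genes of the 5 that control MCL1 turnover were lower, the ubiquitin ligase Huwe1 (-1.35, adjusted p = 0.0307) and the deubiquitinase Usp9x (-1.16, adjusted p = 0.0428). Of 13 upstream genes 3 were higher, among them the IL-5 receptor gene Il5ra by 6.55 (adjusted p = 6.83e-04) and Csf2rb2 by 1.71 (adjusted p = 0.00864). Of 8 further BH3-only genes, Bnip3l rose by 1.00 (adjusted p = 0.0223) and 1 was lower. Of 8 genes of the caspase inhibitor list, 2 were higher and 1 lower. Bcl2a1a, a further A1 gene, was higher by 6.36 (adjusted p = 0.0283), with 1.67 to 17.5 CPM in bone marrow eosinophils and 0 to 0.192 CPM in GMPs, a level so low that the fitted size depends on the model. Of 5 further genes related to the effectors, 1 was higher.

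The median log2 fold change of the 10 genes was 0.84, against 0.01 over all genes tested. With library totals alone, the median of all genes moved to -0.41, the calls split into 982 higher and 1453 lower genes in place of 1585 and 828, and 2 members remained called, Bcl2 at -3.58 and Bcl2a1b at 4.45. Bone marrow eosinophil libraries also held more neutrophil, erythroid and B lineage marker counts than GMPs: 12 of 12, 9 of 9 and 7 of 7 tested markers were higher, at 3.35% to 13.6%, 0.101% to 0.161% and 0.0274% to 0.0628% of counts, against 0.00936% to 0.0125%, 0.00151% to 0.00217% and 0.00490% to 0.00651% in GMPs, where Ms4a1 and Pax5 were among those at 0. Progenitor markers (Mpo, Elane and others) still took 2.60% to 6.34% of their counts, against 6.22% to 7.00% in GMPs. Mast cell and basophil markers (6 of 6 tested higher), T cell markers (3 of 3 higher) and macrophage markers (7 of 10 higher, 2 lower) moved as well. The part of these cell types in the result was not tested.

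**Figure D2:**
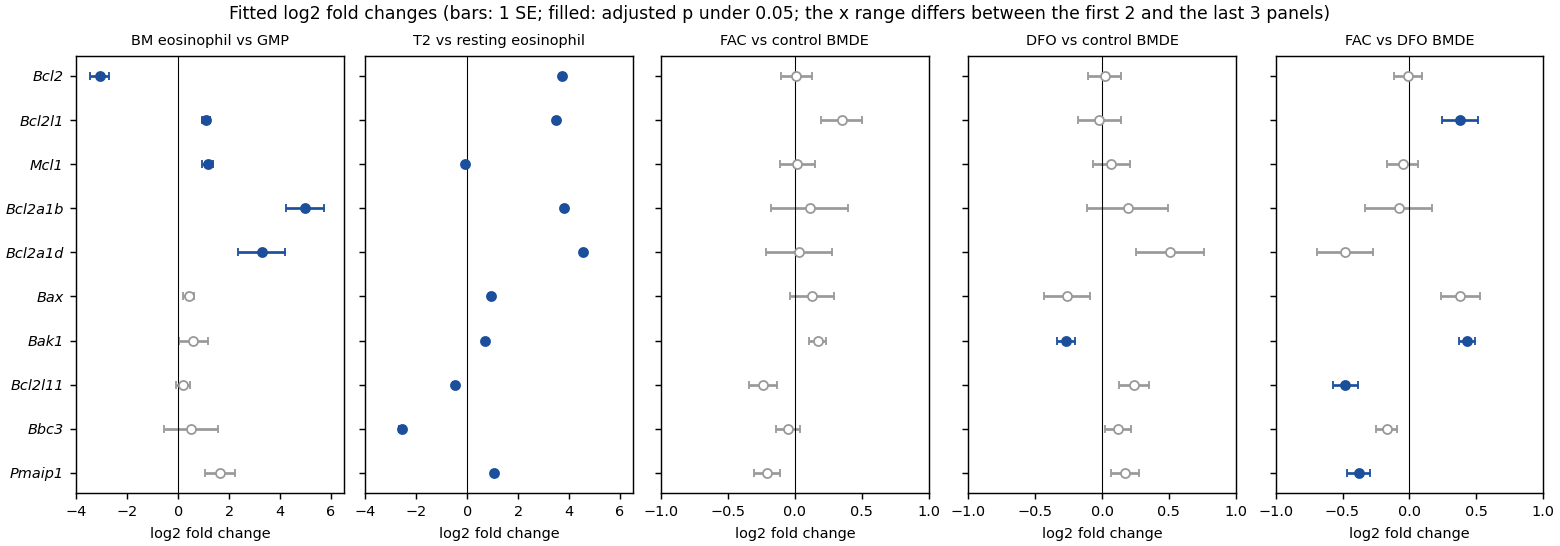
Fitted log2 fold change of each gene in the 5 comparisons, with bars of 1 SE and filled points where the adjusted p was under 0.05; the x range runs from -4 to 6.5 in the first 2 panels and from -1 to 1 in the last 3. All 10 points are filled for T2 against resting eosinophils, 5 for bone marrow eosinophils against GMPs, and 0, 1 and 4 in the BMDE comparisons.

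With iron added or withdrawn the family differed little in cultured eosinophils: with all libraries in the fit, no log2 fold change of a member was past 0.51 in size in any BMDE comparison, and over the alternatives Bcl2a1d went furthest, to -0.77 for FAC against DFO with length and GC offsets. The 3 comparisons share libraries and 1 estimate of the spread, so their values are given side by side and were not tested against each other. Between FAC and DFO, 4 of the 10 genes were called, 2 higher and 2 lower with FAC, where 48.2% of the 12607 genes tested were called, 23.5% higher and 24.8% lower, and the groups did not overlap for 5 of the 10, against 55.7% of all genes. Against control 1 gene, Bak1, was called, as lower, with DFO (background 11.6%, 5.12% lower), and 0 of the 10 were called with FAC in edgeR (background 6.04%, 1.76% higher and 4.28% lower). In that last comparison Bcl2l1, Bcl2l11 and Bak1 had an unadjusted p under 0.05, as did 22.5% of all genes, and DESeq2 called Bak1 alone (log2 fold change 0.19, adjusted p = 0.0365).

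Bak1 had 171.5, 172.3, 161.6 and 164.2 CPM in FAC, 125.3, 120.1 and 126.9 CPM in DFO, and 148.6 and 149.7 CPM in control BMDEs. No group overlaps another: FAC was highest and DFO lowest. The groups were separate for Bcl2l11 too, in the reverse order. How many of all genes tested keep the 3 groups apart was not counted. The log2 fold change was 0.43 ± 0.0574 (SE; adjusted p = 3.09e-04) for FAC against DFO, 0.17 ± 0.0649 (SE; adjusted p = 0.173) for FAC against control and -0.27 ± 0.0677 (SE; adjusted p = 0.0346) for DFO against control. The first call held in all 13 alternative settings, with log2 fold changes from 0.31 to 0.47. The DFO call was lost with no filter on low counts (adjusted p = 0.0505), with library totals alone (adjusted p = 0.0571) and when any 1 of the 5 libraries compared was left out (adjusted p from 0.0940 to 0.214). The other effector gene, Bax, had 113.1, 154.7, 94.3 and 104.8 CPM in FAC, 89.5, 89.9 and 89.2 CPM in DFO, and 106.1 and 107.6 CPM in control BMDEs. All FAC libraries were above all DFO libraries, but the call was missed (log2 fold change 0.38 ± 0.147 SE; adjusted p = 0.0555); without FAC library 6 it was 0.23 (adjusted p = 0.00341).

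Of the 3 BH3-only members, Bcl2l11 and Pmaip1 were lower with FAC than with DFO, and Bbc3 was not called. Bcl2l11 had 56.2, 44.4, 56.5 and 55.9 CPM in FAC, 72.1, 75 and 76.0 CPM in DFO, and 65.8 and 59.9 CPM in control BMDEs. Pmaip1 had 57.3, 73.3, 60.5 and 63.7 CPM in FAC, 81.5, 86.6 and 81.2 CPM in DFO, and 72.1 and 75.6 CPM in control BMDEs. For both genes every DFO library was above every FAC library. FAC library 6 was the lowest of all for Bcl2l11 and the highest FAC library for Pmaip1. For Bcl2l11 the control libraries lay between FAC and DFO and overlapped neither. The log2 fold changes for FAC against DFO were -0.48 ± 0.0928 (SE; adjusted p = 0.00270) for Bcl2l11 and -0.38 ± 0.0870 (SE; adjusted p = 0.00615) for Pmaip1, called in all 13 alternative settings with ranges of -0.60 to -0.23 and -0.51 to -0.31; the smallest Bcl2l11 value came with length and GC offsets. Without FAC library 6 they were -0.39 and -0.44. Bbc3 had 22.0, 24.1, 20.5 and 23.1 CPM in FAC, 23.7, 26.0 and 26.2 CPM in DFO, and 22.8 and 23.6 CPM in control BMDEs, with overlap and no call (FAC against DFO -0.17 ± 0.0791 SE; adjusted p = 0.0953). Bbc3 was called in 3 of the 13 settings: without FAC library 6 (-0.20, adjusted p = 0.0265), with length and GC offsets (-0.25, adjusted p = 0.0236) and with library totals alone (-0.30, adjusted p = 0.00953).

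Bcl2l1 was called between FAC and DFO with the least support. It had 71.4, 95.4, 60.2 and 70.2 CPM in FAC, 59.1, 56.0 and 56.6 CPM in DFO, and 56.0 and 60.3 CPM in control BMDEs. The lowest FAC library lay just above the highest DFO library, and FAC library 6 was far above the rest. The log2 fold change for FAC against DFO was 0.38 ± 0.136 (SE; adjusted p = 0.0457). It was 0.25 (adjusted p = 0.00420) without FAC library 6, and the call was lost in 7 of 13 alternative settings, among them those without FAC library 5 or 8 or any DFO library.

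Bcl2 and Mcl1 did not pass edgeR's test in any BMDE comparison with all libraries and no offsets. Bcl2 had 39.6, 35.4, 48.6 and 39.1 CPM in FAC, 39.6, 40.4 and 42.7 CPM in DFO, and 40.5 and 40.2 CPM in control BMDEs. Mcl1 had 355.9, 481.9, 343.5 and 395.6 CPM in FAC, 415.6, 418.9 and 389.8 CPM in DFO, and 416.3 and 363.7 CPM in control BMDEs. The 3 groups overlap for both genes, with log2 fold changes of -0.01 and -0.05 for FAC against DFO. With length and GC offsets Bcl2 turned to 0.40 there and was called (adjusted p = 0.00143).

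For the A1 genes, Bcl2a1b had 16.7, 33.5, 14.3 and 18.6 CPM in FAC, 22.4, 21.9 and 21.5 CPM in DFO, and 20.0 and 18.5 CPM in control BMDEs. Bcl2a1d had 9.06, 14.0, 7.31 and 7.14 CPM in FAC, 13.8, 12.5 and 12.8 CPM in DFO, and 8.90 and 9.45 CPM in control BMDEs. FAC library 6 was above all DFO libraries for both, and the other 3 FAC libraries were below them. Their sum averaged 30.2 ± 11.7 CPM in FAC (SD, n = 4) and 35.0 ± 1.02 CPM in DFO (SD, n = 3), with -0.21 ± 0.231 (SE) as the log2 fold change (adjusted p = 0.466). Without FAC library 6 the sum changed by -0.50 (adjusted p = 2.14e-05), Bcl2a1b by -0.39 (adjusted p = 0.00133) and Bcl2a1d by -0.72 (adjusted p = 2.21e-05).

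Without FAC library 6, then, 8 of the 10 genes were called between FAC and DFO, 3 higher and 5 lower, where 62.5% of all genes were called, and 3 were called between FAC and control (Bcl2l1 0.22, Bak1 0.16 and Pmaip1 -0.28), where 21.7% were. FAC library 6 also enters the shared spread that DFO against control is tested with; without it 5 genes were called there, 3 higher (Bcl2l11 0.24, Bcl2a1d 0.50 and Pmaip1 0.16) and 2 lower (Bax -0.26 and Bak1 -0.27), where 39.0% of all genes were called, an alternative chosen after seeing the data. In the main fit the groups of DFO and control did not overlap for 7 of the 10 genes, against 65.7% of all genes, and those of FAC and control for 2 of 10, against 36.1%. The medians of the 10 log2 fold changes were -0.06 for FAC against DFO, 0.02 for FAC against control and 0.09 for DFO against control, beside -0.01, -0.02 and 0.00 over all genes tested. With library totals alone, the median of all genes moved to -0.14 for FAC against DFO, whose calls split into 1919 higher and 4018 lower genes in place of 2959 and 3121, and the split for FAC against control was 153 and 806 in place of 222 and 539.

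Of 13 genes of the apoptosome and caspase list, 3 were higher and 1 lower between FAC and DFO, 0 higher and 1 lower between DFO and control, and none was called between FAC and control; Apaf1, Casp9 and Trp53 were called in none of the 3. Further BH3-only genes moved in both directions between FAC and DFO, 3 higher and 2 lower of 10, with Bnip3, a hypoxia-responsive mitophagy gene, at 1.53 (adjusted p = 4.79e-04) and Bcl2l14 at -1.08 (adjusted p = 6.66e-04). Of 8 genes of the caspase inhibitor list, 5 were lower with FAC than with DFO, among them Naip5 (-0.45). The 1 higher gene was Birc5 (0.88). In that comparison 24.8% of all genes tested were called lower and 23.5% higher. Of 7 genes of the death receptor list, 2 were higher with FAC than with DFO and 1 was lower. The higher ones were the signalling genes Tradd (0.61) and Fadd (0.39), and the lower one was the receptor gene Tnfrsf1a (-0.88). Of 5 further genes related to the effectors, 2 were higher. Over all genes tested, 6.46% were called higher and 5.12% lower with DFO than in control, and 1.76% and 4.28% with FAC. Against control, DFO changed 2 of 10 further BH3-only genes upward, and 1 of 12 p53 genes and 2 of 13 upstream genes downward. DFO also changed Birc3 of the caspase inhibitor list and the receptor gene Tnfrsf1a upward. Against control, FAC changed 4 of 12 p53 genes, 1 upward and 3 downward, and 1 upstream gene upward. Of 12 p53 genes 1 was higher with FAC than with DFO (Perp, 1.21, adjusted p = 9.40e-06) and 5 were lower, led by Eda2r (-1.60, adjusted p = 4.84e-04), and in the same comparison 3 of 13 upstream genes were higher, with Il5ra at 1.08 (adjusted p = 1.11e-04), and 4 lower.

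Cell markers moved with iron supply too. The eosinophil markers took 5.66% to 6.44% of counts in FAC, 1.95% to 2.29% in DFO and 4.35% to 4.41% in control BMDEs; all 10 were higher with FAC than with DFO. The neutrophil markers took 0.636% to 0.863% in FAC, 1.77% to 1.99% in DFO and 0.941% to 1.12% in control BMDEs, with 11 of 12 lower with FAC than with DFO. The plasmacytoid dendritic cell markers took 0.0301% to 0.0369%, 0.128% to 0.134% and 0.0649% to 0.0684% of the FAC, DFO and control counts, with none of the 6 at 0 in any group. Their part in the differences of Bak1, Bcl2l11 and Pmaip1 was not tested.

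Levels of different genes can be set side by side only per length, for which the authors' FPKM (fragments scaled to transcript length and library size) were used. In T2 eosinophils Bcl2a1b (800.2 ± 29.6 FPKM), Bcl2a1d (481.9 ± 18.2), Mcl1 (364.7 ± 5.27) and Bcl2l1 (122.0 ± 4.61) stood above all death-promoting genes, of which Pmaip1 was the highest at 58.2 ± 0.742 FPKM (SD, n = 3). Among the 10 genes, Mcl1 led in resting eosinophils at 455.5 ± 3.54 FPKM. Bcl2a1b followed at 67.3 ± 3.61 and Bak1 at 40.7 ± 1.26 FPKM, and Bcl2 was the lowest at 0.737 ± 0.0433 FPKM (SD, n = 3). Bcl2a1a, outside the 10, averaged 89.3 FPKM in resting and 470.2 FPKM in T2 eosinophils. The places of single Bcl2a1 genes depend on the uncertain split of shared reads. Neighbours in these orders whose ranges overlap were Pmaip1 with Bak1 and Bak1 with Bax in T2, and Pmaip1 with Bax, Bcl2a1d with Bcl2l11 and Bcl2l1 with Bbc3 in resting eosinophils.

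In bone marrow eosinophils and GMPs Bax led, at 119.9 ± 7.50 and 128.4 ± 4.43 FPKM (SD, n = 3 each). Next came Bcl2l1 (23.0 ± 3.79), Bcl2a1b (17.0 ± 7.37) and Mcl1 (14.0 ± 1.91 FPKM) in bone marrow eosinophils, where each overlaps its neighbour but Bcl2l1 does not overlap Mcl1, and Bcl2 (29.2 ± 13.2), Bcl2l1 (14.4 ± 0.596) and Mcl1 (8.72 ± 1.44 FPKM) in GMPs, whose ranges do not. In bone marrow eosinophils all neighbours from Pmaip1 (6.09 ± 3.17 FPKM) down to Bbc3 (1.22 ± 1.19 FPKM) overlap. In all 3 BMDE groups the order began with Bax, Mcl1, Bak1 and Bcl2a1b and ended with Bcl2; Bax stood at 185.3 ± 33.5 FPKM in FAC (SD, n = 4), 157.2 ± 0.771 in DFO (SD, n = 3) and 182.1 ± 3.05 FPKM in control BMDEs (SD, n = 2), and Mcl1 at 117.0 ± 15.1, 132.7 ± 4.93 and 123.4 ± 11.1 FPKM. Neighbours that overlap were Bcl2a1d with Bcl2l1 and Bcl2l11 with Bbc3 in DFO, Bbc3 with Bcl2l11 in control, and the genes from Bcl2a1b through Bcl2l1, Pmaip1 and Bcl2a1d to Bbc3 in FAC. The tables were normalized separately, so levels set across them are descriptions only.

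**Figure D3:**
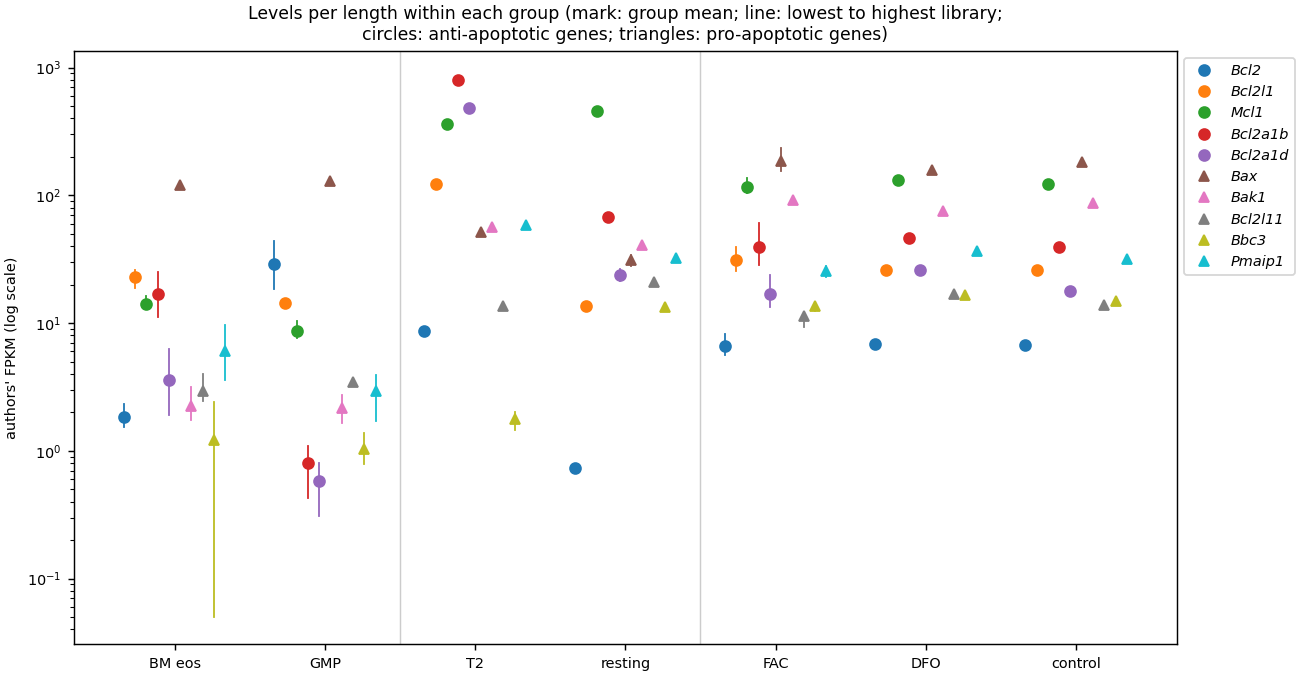
Authors' FPKM of the 10 genes in each of the 7 groups on a log axis; marks are group means, lines run from the lowest to the highest library, and circles stand for anti-apoptotic and triangles for pro-apoptotic genes. Bax leads in marrow cells and BMDEs, Mcl1 in resting eosinophils at 455.5 FPKM and Bcl2a1b in T2 eosinophils at 800.2 FPKM.

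Ratios between members within a library do not depend on its scaling and are given as log2 ratios of counts, with no test. Bcl2l1 to Bcl2l11 was 2.32, 2.32 and 2.37 in T2 libraries and -1.69, -1.62 and -1.57 in resting libraries. It was 1.67, 2.22 and 1.87 in bone marrow eosinophils and 1.07, 0.76 and 1.15 in GMPs. In BMDEs it was 0.35, 1.10, 0.09 and 0.33 with FAC, -0.29, -0.42 and -0.43 with DFO, and -0.23 and 0.01 in control. The T2 and resting ranges lie far apart, and FAC lies above DFO in every library.

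The ratio of Bcl2 to Bax averaged 0.38 ± 0.0597 in T2 and -2.44 ± 0.221 in resting eosinophils (SD, n = 3 each). It averaged -3.01 ± 0.193 in bone marrow eosinophils and 0.47 ± 0.594 in GMPs (SD, n = 3 each). The ratio was thus higher in T2 than in resting eosinophils and lower in bone marrow eosinophils than in GMPs. In BMDEs Bcl2 to Bax averaged -1.51 with FAC, -1.13 with DFO and -1.40 in control. It ran from -2.13 to -0.96 with FAC and from -1.18 to -1.06 with DFO, so the FAC mean was lower but the ranges overlap. Mcl1 to Bcl2l11 ran from 4.49 to 4.51 in T2 against 4.08 to 4.18 in resting eosinophils, and from 1.49 to 1.85 in bone marrow eosinophils against 0.70 to 0.81 in GMPs. In BMDEs Mcl1 to Bcl2l11 ran from 2.60 to 3.44 with FAC, from 2.36 to 2.53 with DFO and from 2.60 to 2.66 in control, with the highest value in FAC library 6.

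**Figure D4:**
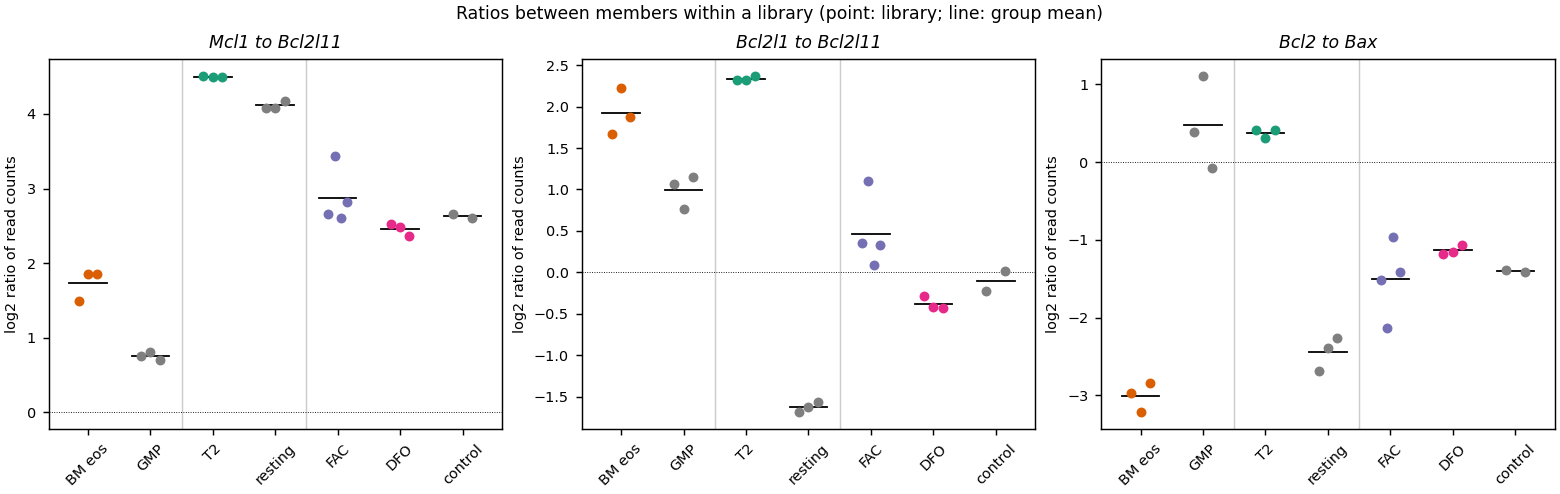
Log2 ratio of read counts between 2 members within each library (left Mcl1 to Bcl2l11, middle Bcl2l1 to Bcl2l11, right Bcl2 to Bax); points are libraries and lines group means. Bcl2l1 to Bcl2l11 sits between 2.32 and 2.37 in T2 and between -1.69 and -1.57 in resting eosinophils, and Bcl2 to Bax is lowest in bone marrow eosinophils.

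The members with the widest range of group means, centred within each table, were Bcl2a1d (4.49 on the log2 scale), Bcl2a1b (3.76) and Bcl2 (3.5), and the narrowest was Bcl2l11 (0.51). Over 21 libraries and 10265 genes, the genes most like Bcl2a1d in centred log2(CPM + 1) were Fth1, the ferritin heavy chain (Pearson r = 0.982), Tnfaip8 (r = 0.980) and Phlda1 (r = 0.980). Those most like Bcl2a1b were Glrx (r = 0.984), Adprh (r = 0.974) and Plaur, the urokinase receptor (r = 0.974). Those most like Bcl2 were Hspa4, a heat shock protein (r = 0.984), Mapk1ip1l (r = 0.982) and Wdr43 (r = 0.980). The points share tables, groups and depth, and these values are descriptions with no p.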

How the data were processed

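RNA from 21 mouse libraries had been enriched with oligo(dT) beads before sequencing, per the labels. The authors deposited expected counts for bone marrow eosinophils, GMPs and BMDEs, here rounded to whole numbers, and counts in the T2 table, each beside the authors' FPKM. The submitters' processing notes name fastp 0.18.0, Bowtie2 2.2.8, HISAT2, StringTie 1.3.1, RSEM and mm10 without their roles; read length, strand setting and treatment of shared reads are not given in the sources used here. Another 15 deposited per-sample columns (TPM) were not used. Per-length levels rest on the deposited FPKM, in place of a planned calculation from annotated lengths.

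Genes kept by filterByExpr were scaled with TMM factors and tested with edgeR 4.0.16's two-sided quasi-likelihood F test in R 4.3.3, with limma 3.58.1, Benjamini-Hochberg adjustment over all genes tested and a threshold of 0.05; the 9 BMDE libraries entered 1 fit. The fit was also run on simulated counts with a common spread for all genes and few changed genes. FAC against DFO was not simulated. That setting is unlike these data, so it gives no error rate for them. Total counts were 16073573 to 28992674 per library, and the standard errors also reflect the spread between libraries. Intervals on shares, not printed here, were exact binomial ones at 95%. They cover counting error only, since reads carried no molecular identifiers. Alternatives were DESeq2 1.42.0, DESeq2 size factors, no filter, length and GC offsets (mgcv 1.9.3), a replicate block, fits of only the 2 groups compared, each library left out and, chosen after seeing the data, library totals alone and a BMDE fit without FAC library 6.

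The members and gene lists were chosen with earlier results of these data known. All 10 members are named in every comparison; from each list the called genes with a log2 fold change of at least 1 in size are named, at most 4 and the largest first, with Trp53, Casp9 and Apaf1 always; some genes the rule would name are not reported here. Likeness is Pearson's r for the 3 members with the widest range. Sequences were read with Biopython 1.88 and tables with pandas 2.3.3 in Python 3.11.15, and figures drawn with matplotlib 3.10.9.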

Additional observations from a re-analysis of the deposited data

Results flagged for a closer look

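Of 14 values examined in the 4 FAC libraries, 2 had 1 library far from the other 3; chance gives such a gap in about 1 in 20 groups. Bcl2l11 was at 44.4 CPM in FAC library 6, against 55.9 to 56.5 CPM in the other FAC libraries, a gap of 0.952 of the whole range, past the 95% critical value of Dixon's test. The sum of Bcl2a1b and Bcl2a1d was at 47.5 CPM in FAC library 6, against 21.6 to 25.8 CPM in the others, a gap of 0.840 of the range.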

How the results depend on the processing

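Between T2 and resting eosinophils all members but Mcl1 kept their calls in all 13 alternatives, and leaving out 1 library gave 9 to 10 called members and 71.6% to 73.6% of all genes. For bone marrow eosinophils against GMPs, 5 called members became 2 with library totals alone and 3 to 5 with 1 library left out; the share of all genes called, 19.8%, became 30.9% in DESeq2 and 5.91% to 36.6% with 1 library left out, and the Bcl2a1b and Bcl2a1d sum, 4.48, ran from 3.71 to 4.82 with 1 library left out and was 2.86 with length and GC offsets. For DFO against control, 1 called member became 0 with no filter (7.71% of all genes), with library totals alone or with any library left out (1.69% to 5.57%), 3 with length and GC offsets (23.4%), 6 with only the 2 groups (48.0%) and 5 without FAC library 6 (39.0%); the sum, 0.30, was called with offsets (0.40, adjusted p = 0.0319), with the 2 groups (0.30, adjusted p = 5.30e-04) and without FAC library 6 (0.30, adjusted p = 0.00867). For FAC against control, 0 called members became 1 in DESeq2 (10.3% of all genes) and 0 to 3 with 1 library left out (0.593% to 21.7%); the share was 3.94% with no filter, 13.6% with offsets and 0.935% with the 2 groups. For FAC against DFO, 4 called members (48.2% of all genes) became 9 with offsets (55.9%) and 3 to 8 with 1 library left out (33.9% to 62.5%); the sum was -0.52 with offsets and -0.50 to -0.06 with 1 library left out, and Bcl2 reversed to 0.40 with offsets (adjusted p = 0.00143), against -0.01. The cause of these changes was not tested. A lone library left in a group is assumed to vary like the others.

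The replicate numbers showed no clear pairing of the samples. After centring within groups, same-numbered libraries correlated at 0.02, -0.05 and 0.19 (bone marrow eosinophils and GMPs) and at -0.03, -0.02 and -0.01 (T2 and resting). Not every library correlated best with its own number. With 3 libraries a group this check cannot exclude pairing. With a replicate block the called members were 4 in the marrow comparison (11.6% of all genes; 2 and 12.7% with offsets added) and 9 in the T2 comparison (74.9%), where Mcl1 lost its call (adjusted p = 0.0523; 0.0514 with offsets added). No paired analysis was possible for BMDEs because their groups share no replicate numbers.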

Other observations

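The split of counts among the Bcl2a1 genes differed between groups, with the limits on shared reads given above. Bcl2a1d made up 38.7%, 39.0% and 39.0% of the Bcl2a1b and Bcl2a1d counts in T2 eosinophils, against 26.3%, 25.8% and 29.4% in resting eosinophils. It made up 15.2%, 15.1% and 20.9% in bone marrow eosinophils, against 26.3%, 60% and 43.3% in GMPs, where these are 5 of 19, 9 of 15 and 13 of 30 counts. In BMDEs the share was 27.7% to 35.2% with FAC, 36.4% to 38.1% with DFO and 30.8% to 33.9% in control. Bcl2a1a made up 26.3% ± 0.412 of the counts of all 4 genes in T2 and 48.8% ± 2.03 in resting eosinophils (SD, n = 3 each). It made up 21% ± 1.16 with FAC (SD, n = 4), 11.9% ± 0.675 with DFO (SD, n = 3) and 18.3% ± 0.208 in control BMDEs (SD, n = 2). No test was run on these shares.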
